A study of Mus musculus with 16 samples.

Results

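Peroxiredoxins, glutathione peroxidases, catalase and superoxide dismutase are the enzymes that clear peroxides and superoxide from cells. The 10 genes described here were Prdx1 to Prdx6, Gpx1, Gpx4, Cat and Sod1, chosen by name because RORα, the nuclear receptor encoded by Rora, has been linked to the protection of neurons from oxidative stress. Each was read by 1 probe, so they make up 10 of the 24107 probes and 10 of the 18501 named genes of the array. The study hybridized RNA of Stagerrer mutant mice (the labels' spelling of staggerer, a deletion in Rora) against control RNA, all from C57BL/6 pups at postnatal days 5 to 6. RNA came from the ventrobasal nucleus of the thalamus (VB), which relays touch from the whiskers, and from the somatosensory cortex that receives its axons.

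In each tissue 4 litters were compared on 2 arrays each with the dyes exchanged, 16 arrays in all. Arrays that carried mutant RNA in Cy5 are called mutant-Cy5 arrays here, and those with mutant RNA in Cy3 mutant-Cy3 arrays. The mutation is carried by every cell of the animal. The labels do not say whether mutants were homozygous, what genotype the controls had, how many pups made up a sample or their sex, so p-values measure the spread between litter samples. Cortex RNA was labelled directly and VB RNA after PCR amplification, so tissue and labelling method cannot be told apart.

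A deposited value is a log ratio of both RNAs on an array, taken as log2, and has no level in it. The tissues could therefore not be checked against their marker genes, and no gene can be called more abundant than another. The labels leave the numerator unnamed, mutant or control, and do not say whether the columns of the exchanged arrays were already turned to run the same way. Every array title reads "Ctrl vs Stg" (control and mutant) in both dye assignments, which settles neither point. The members are therefore described by both quantities that a pair of exchanged arrays yields. The pair mean is the genotype ratio if the columns were turned, and the half-difference (mutant-Cy5 minus mutant-Cy3, divided by 2) is then the dye effect of the probe. If the columns follow the dyes, the roles are exchanged. The first reading is the main one, taken over from earlier processing of these data. Its support from the arrays is weak in cortex and close to none in VB. Turned columns would make exchanged arrays of a litter deviate together and columns that follow the dyes in opposite ways, and the deviations of exchanged arrays of a litter had Spearman correlations of -0.00496, -0.00625, 0.033 and 0.065 in VB and 0.031, 0.013, 0.058 and 0.13 in cortex for litters 1 to 4. The text therefore reports signs and makes no statement on which genotype had more of a transcript. The Rora probe, whose place relative to the deletion is unknown and which therefore does not check the labels, had 0.052 to 0.70 on the 4 mutant-Cy5 arrays and -0.69 to -0.39 on the 4 mutant-Cy3 arrays in VB, and -0.73 to -0.44 on 3 mutant-Cy5 arrays and -0.76 to 0.26 on 4 mutant-Cy3 arrays in cortex. Its pair means, -0.13 ± 0.12 in VB (SD, n = 4) and -0.45 ± 0.26 in cortex (n = 3), did not pass in limma (adjusted p = 0.555 and 0.358). That result holds for the first reading alone. Under the second, the Rora half-difference was positive in all 4 VB litters. Its dye assignments did not overlap in VB, as was so for 28.1% of VB probes with at least 3 arrays of each. They overlapped in cortex, and no test of the Rora half-difference is given here.

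Peroxiredoxins reduce hydrogen peroxide and organic peroxides with a reactive cysteine that thioredoxin then restores. Glutathione peroxidases Gpx1 and Gpx4 use a selenocysteine and glutathione, catalase splits hydrogen peroxide in peroxisomes, and Sod1 turns superoxide into hydrogen peroxide in the cytosol. Cultured cortical neurons made to overproduce human RORα are known to contain more glutathione peroxidase Gpx1 and peroxiredoxin Prdx6, which is the background for looking at the family in Rora mutant mice.

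RORα binds the half-site AGGTCA when A- and T-rich bases precede it. Promoter windows from RefSeq (GRCm38.p6, 250 bases before to 50 after a transcript start, 12 windows of 9 of the 10 genes, all but Prdx6) were searched on both strands. The half-site was in 3 of the 12 windows, of 3 genes, and in 16.3% of all 32851 windows, a letter match that does not ask for those preceding bases. The stretches around the 3 half-sites are shown because RORα is the protein whose gene is mutated, with the half-site, or its complement for Gpx4, in capitals. The Gpx4 match lies in 1 of the 4 windows of that gene.
Cat, chr2:103485332-103485377, minus strand: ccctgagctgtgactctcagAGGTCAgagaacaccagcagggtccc
Prdx3, chr19:60874703-60874748, minus strand: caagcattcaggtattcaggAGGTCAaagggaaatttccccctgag
Gpx4, chr10:80053923-80053968, plus strand: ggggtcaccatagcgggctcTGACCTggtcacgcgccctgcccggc

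The motif TGACNNNGC, bound by the oxidant-responsive factor NRF2, was in 2 of the 12 windows, of 2 genes, and in 12.4% of all windows, both times on the opposite strand and shown in capitals.
Prdx1, chr4:116685446-116685494, plus strand: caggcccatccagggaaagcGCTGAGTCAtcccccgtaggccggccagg
Sod1, chr16:90220686-90220734, plus strand: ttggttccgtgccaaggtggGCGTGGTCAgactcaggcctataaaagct
These are matches of letters in a window and say nothing of binding in these tissues.

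None of the antioxidant enzyme genes passed the test of the pair mean in either tissue. In VB 7 of the 10 had values in at least 3 litters and were tested with limma, and 0 had a Benjamini-Hochberg adjusted p under 0.05, where 0.311% of all 16066 features passed. At an unadjusted p under 0.05 it was 1 of the 7, Prdx2, against 10.2% of features. In cortex 8 were tested by limma and 0 passed, where 0.0605% of 16521 features passed. Here 1 of the 8, Gpx4, had an unadjusted p under 0.05, against 7.9% of features. The median pair mean of the tested members was 0.040 in VB (5 positive, 2 negative) and 0.11 in cortex (6 positive, 2 negative), against medians of 0.0057 and -0.0031 over all features. In these dissected pieces fewer cells of a type and less RNA per cell cannot be told apart.

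**Figure D1:**
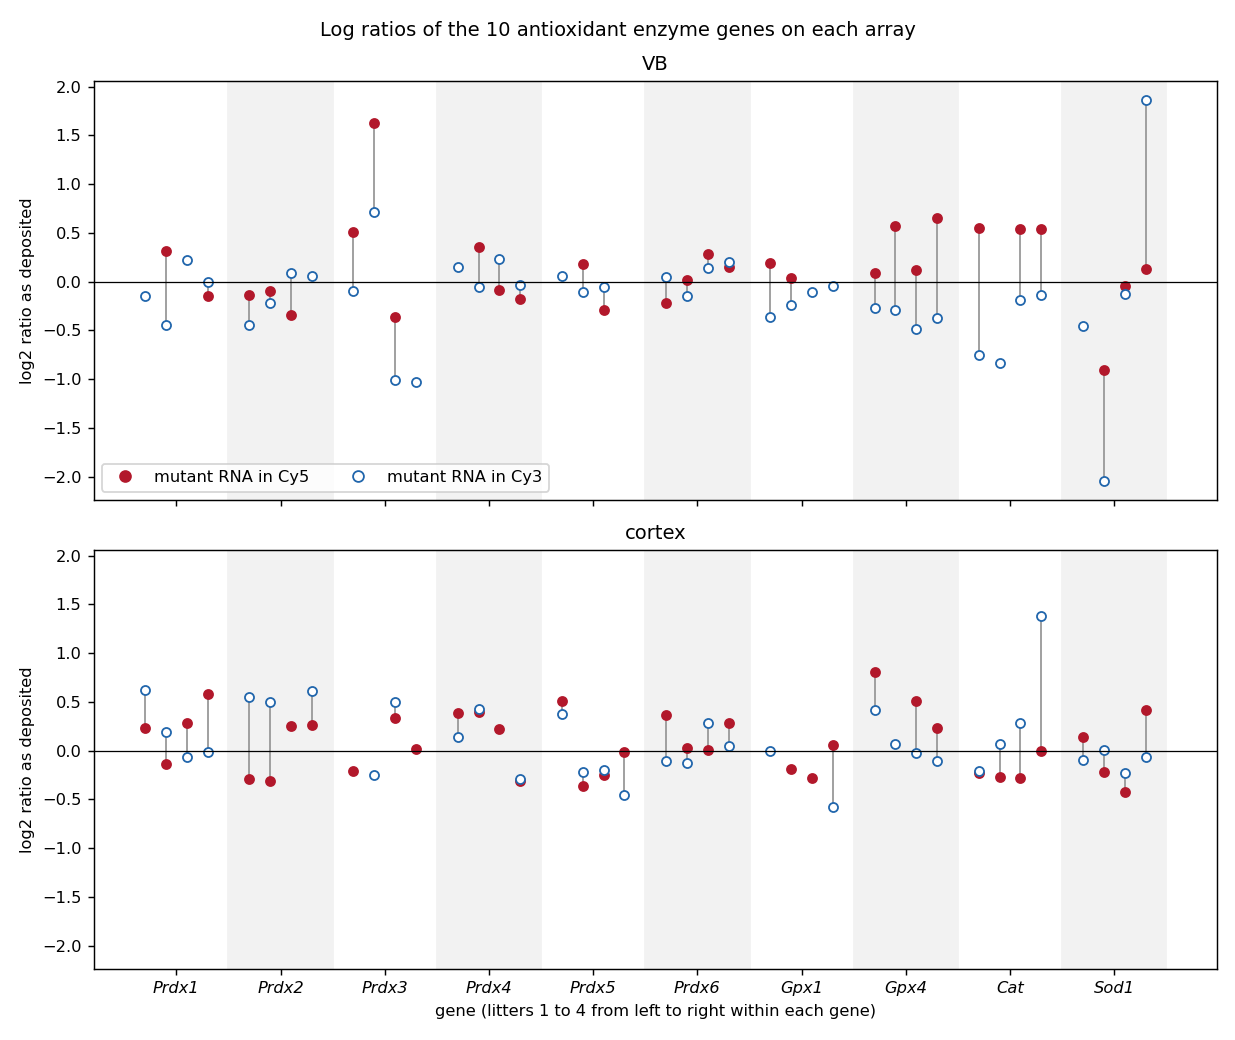
Deposited log2 ratio (vertical axis) of each of the 10 genes (horizontal axis) on each array, VB above and cortex below, with litters 1 to 4 from left to right within a gene. Filled red points are mutant-Cy5 arrays, open blue points mutant-Cy3 arrays, and a grey line joins the pair of a litter. Sod1 and Prdx3 in VB range widely between litters, and Cat and Gpx4 in VB have every filled point above 0 and every open point below.

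Prdx2 (chr8:84969622-84974811), an abundant cytosolic peroxiredoxin of neurons and red blood cells, had the smallest unadjusted p of the members by the pair mean. Gene coordinates here and below are RefSeq's on GRCm38.p6, and where in a gene its probe lies is not known. The VB log2 ratios of Prdx2 were -0.14, -0.09 and -0.34 on the mutant-Cy5 arrays of litters 1 to 3, with no value in litter 4, and -0.45, -0.22, 0.08 and 0.05 on the mutant-Cy3 arrays of litters 1 to 4. The 3 litters with a complete pair were all negative, with pair means of -0.29, -0.16 and -0.13. Their mean was -0.19 ± 0.09 (SD, n = 3 litters; 95% interval -0.37 to -0.015), with an unadjusted p of 0.0366 and an adjusted p of 0.459 in limma, and did not pass.

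In cortex Prdx2 had log2 ratios of -0.29, -0.31, 0.26 and 0.26 on the mutant-Cy5 arrays and 0.55, 0.50 and 0.61 on the mutant-Cy3 arrays of litters 1, 2 and 4. These dye assignments did not overlap, as was so for 9.84% of cortex probes with at least 3 arrays of each. The pair means of those 3 litters were 0.13, 0.09 and 0.44, all positive (mean 0.22 ± 0.19, SD, n = 3; limma adjusted p = 0.741). Among the 6 members tested in both tissues, Prdx2 alone had every VB litter on one side of 0 and every cortex litter on the other, as had 2.45% of the 12178 features tested in both. The difference, VB minus cortex, was -0.41 (95% interval -0.73 to -0.09; unadjusted p = 0.0154, limma adjusted p = 0.410) and did not pass. Only litters 1 and 2 had Prdx2 pairs in both tissues. With litter as a replicate block, the difference over these was -0.34 (95% interval -0.75 to 0.082; unadjusted p = 0.104, adjusted p = 0.684), an interval that includes 0. Both values assume the same numerator in both tissues. With the cortex columns given the opposite sign the value is 0.027 (adjusted p = 0.976), and from the half-differences it is 0.34 (adjusted p = 0.254).

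Red blood cells hold much Prdx2, Cat and Sod1, so blood genes are set beside them. Of 14 listed blood genes 8 had a probe, among them Hba-a1, Hbb-bt and Alas2, of which 8 were tested in VB (4 positive, 4 negative, median -0.035) and 6 in cortex (1 positive, 5 negative, median -0.097), and 0 passed in either tissue by limma, with 0 and 1 at an unadjusted p under 0.05. Their median over genes ran from -0.051 to 0.0050 across the VB litters and from -0.25 to 0.050 across the cortex litters. These medians do not show the spread of the 1 cortex gene with an unadjusted p under 0.05, the globin gene Hbb-bt. It had -0.53 ± 0.68 in cortex (SD, n = 4; limma unadjusted p = 0.0165, adjusted p = 0.515), with litters from -1.36 to 0.27. The part of blood in the Prdx2 values was not tested.

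Prdx1 (chr4:116685599-116700000), the other abundant cytosolic peroxiredoxin, had complete pairs in 2 VB litters and fell short of the 3-litter minimum there. The VB values were 0.31 and -0.15 on the mutant-Cy5 arrays of litters 2 and 4, and -0.15, -0.44, 0.22 and -0.0050 on the mutant-Cy3 arrays of litters 1 to 4. The dye assignments overlap, and both complete pairs had a negative mean (-0.065 and -0.076). With a minimum of 2 litters the VB mean was -0.070 (limma adjusted p = 0.868). Cortex values were 0.23, -0.14, 0.28 and 0.58 on the mutant-Cy5 arrays and 0.63, 0.20, -0.07 and -0.0090 on the mutant-Cy3 arrays. The pair means of the 4 cortex litters, 0.43, 0.030, 0.11 and 0.29, were all positive, opposite to both VB pairs, with a mean of 0.21 ± 0.18 (SD, n = 4; 95% interval -0.026 to 0.45; limma adjusted p = 0.689). The tissue difference was not tested for Prdx1.

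Prdx3 (chr19:60864066-60874538) is the peroxiredoxin of mitochondria. In VB its log2 ratios were 0.51, 1.62 and -0.37 on the mutant-Cy5 arrays of litters 1 to 3 and -0.10, 0.71, -1.01 and -1.03 on the mutant-Cy3 arrays of litters 1 to 4. Litter 2 was far above 0 and litter 3 below 0 in both dye assignments. The pair means, 0.20, 1.17 and -0.69, averaged 0.23 ± 0.93 (SD, n = 3; 95% interval -0.35 to 0.81; limma adjusted p = 0.811), and without litter 2 the mean was -0.24 (adjusted p = 0.779). The interval, which borrows spread from other features, leaves out the pair means of litters 2 and 3. With robust eBayes in limma the adjusted p was 0.925. In cortex 1 complete pair was left, 0.33 and 0.50 in litter 3, and the gene was not tested. Its other cortex values were -0.21 and 0.016 on the mutant-Cy5 arrays of litters 1 and 4 and -0.25 on the mutant-Cy3 array of litter 2.

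Prdx4 (chrX:155323918-155342272), which works in the endoplasmic reticulum, had VB values of 0.35, -0.09 and -0.17 on the mutant-Cy5 arrays of litters 2 to 4 and 0.15, -0.05, 0.23 and -0.030 on the mutant-Cy3 arrays of litters 1 to 4. The VB mean was 0.040 ± 0.13 (SD, n = 3; limma adjusted p = 0.912). In cortex it had 0.38, 0.40, 0.23 and -0.31 on the mutant-Cy5 arrays and 0.14, 0.42 and -0.29 on the mutant-Cy3 arrays of litters 1, 2 and 4. The dyes gave nearly the same values within litters 2 and 4, while litter 4 stood apart from litters 1 and 2, and the mean was 0.12 ± 0.38 (SD, n = 3; limma adjusted p = 0.909).

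Prdx5 (chr19:6906697-6910106), found in mitochondria, peroxisomes and cytosol, had complete pairs in 2 VB litters, with pair means of 0.034 and -0.17, and fell short of the 3-litter minimum. With a minimum of 2 litters the VB mean was -0.069 (limma adjusted p = 0.879). Its VB values lay between -0.29 and 0.18 over 5 arrays. In cortex the values were 0.51, -0.36, -0.25 and -0.01 on the mutant-Cy5 arrays and 0.38, -0.22, -0.19 and -0.45 on the mutant-Cy3 arrays. Litter 1 was positive in both dye assignments and the other litters negative in both. The mean was -0.075 ± 0.35 (SD, n = 4; limma adjusted p = 0.944), and without litter 1 it was -0.25 (adjusted p = 0.814).

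Prdx6 (chr1:161240112-161251210) uses glutathione in place of thioredoxin and also has phospholipase activity. It is 1 of the 2 enzymes named above in connection with RORα. VB values were -0.22, 0.014, 0.28 and 0.15 on the mutant-Cy5 arrays and 0.049, -0.15, 0.14 and 0.20 on the mutant-Cy3 arrays. Litters 3 and 4 were positive in both assignments and litters 1 and 2 were mixed. The mean was 0.059 ± 0.16 (SD, n = 4; 95% interval -0.11 to 0.22; limma adjusted p = 0.842), an interval of 0.928-fold to 1.17-fold.

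In cortex Prdx6 had 0.37, 0.023, 0.011 and 0.28 on the mutant-Cy5 arrays and -0.11, -0.13, 0.28 and 0.047 on the mutant-Cy3 arrays. The dye assignments overlapped. The mean was 0.096 ± 0.10 (SD, n = 4; 95% interval -0.13 to 0.32; limma adjusted p = 0.891), an interval of 0.914-fold to 1.25-fold. A larger SD between cortex litters was found for 87.4% of features.

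Gpx1 (chr9:108339080-108340342), the cytosolic glutathione peroxidase and the other enzyme tied to RORα in culture, fell short of the 3-litter minimum in both tissues. In VB it had 0.19 and 0.038 on the mutant-Cy5 arrays of litters 1 and 2 and -0.36, -0.24, -0.11 and -0.040 on the mutant-Cy3 arrays of litters 1 to 4. The assignments, 2 arrays against 4, did not overlap, as was so for 28.1% of VB probes with at least 3 arrays of each. Both complete pairs had a negative mean (-0.086 and -0.10). With a minimum of 2 litters the VB mean was -0.094 (limma adjusted p = 0.809). In cortex it had -0.19, -0.28 and 0.062 on the mutant-Cy5 arrays of litters 2 to 4 and -0.0050 and -0.58 on the mutant-Cy3 arrays of litters 1 and 4, with 1 complete pair (mean -0.26).

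Gpx4 (chr10:80047166-80056439) reduces lipid peroxides in membranes and thereby guards cells from ferroptosis, an iron-dependent form of cell death. VB values were 0.085, 0.57, 0.12 and 0.65 on the mutant-Cy5 arrays and -0.27, -0.29, -0.48 and -0.37 on the mutant-Cy3 arrays. All mutant-Cy5 arrays were positive, all mutant-Cy3 arrays negative, and the pair mean was 0.00075 ± 0.16 (SD, n = 4; limma adjusted p = 0.999). The assignments did not overlap for 28.1% of VB probes with at least 3 arrays of each. In cortex the values were 0.81, 0.51 and 0.23 on the mutant-Cy5 arrays of litters 1, 3 and 4 and 0.42, 0.07, -0.021 and -0.11 on the mutant-Cy3 arrays of litters 1 to 4. The 3 complete pairs were positive (0.61, 0.25 and 0.062), with a mean of 0.31 ± 0.28 (SD, n = 3; 95% interval 0.0033 to 0.61; unadjusted p = 0.0479, limma adjusted p = 0.624). VB minus cortex was -0.31 (95% interval -0.64 to 0.029; adjusted p = 0.594).

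Cat (chr2:103453904-103485153) encodes catalase. Its VB values were 0.56, 0.54 and 0.54 on the mutant-Cy5 arrays of litters 1, 3 and 4 and -0.75, -0.83, -0.19 and -0.14 on the mutant-Cy3 arrays of litters 1 to 4. As for Gpx4, the sign followed the dye assignment, and the pair mean was 0.094 ± 0.17 (SD, n = 3; limma adjusted p = 0.758). Assignments without overlap were found for 28.1% of VB probes with at least 3 arrays of each. In cortex the mutant-Cy5 arrays gave -0.23, -0.27, -0.28 and -0.0080 and the mutant-Cy3 arrays -0.21, 0.071, 0.29 and 1.38. The array of litter 4 with 1.38 stood above all other Cat values, and the mean was 0.092 ± 0.41 (SD, n = 4; limma adjusted p = 0.935), or -0.11 without litter 4.

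Sod1 (chr16:90220762-90226333), the cytosolic copper and zinc superoxide dismutase, had VB values of -0.91, -0.041 and 0.13 on the mutant-Cy5 arrays of litters 2 to 4 and -0.45, -2.04, -0.13 and 1.86 on the mutant-Cy3 arrays of litters 1 to 4. Litter 2 was negative and litter 4 positive in both dye assignments. The pair means of -1.47, -0.086 and 0.99 averaged -0.19 ± 1.24 (SD, n = 3; 95% interval -0.94 to 0.57; limma adjusted p = 0.894), and without litter 2 the mean was 0.45. The interval, which borrows spread from other features, leaves out the pair means of litters 2 and 4. With robust eBayes in limma the adjusted p was 0.959. In cortex the values were 0.14, -0.21, -0.42 and 0.42 on the mutant-Cy5 arrays and -0.09, 0.0090, -0.23 and -0.06 on the mutant-Cy3 arrays (mean -0.056 ± 0.21, SD, n = 4; limma adjusted p = 0.955).

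**Figure D2:**
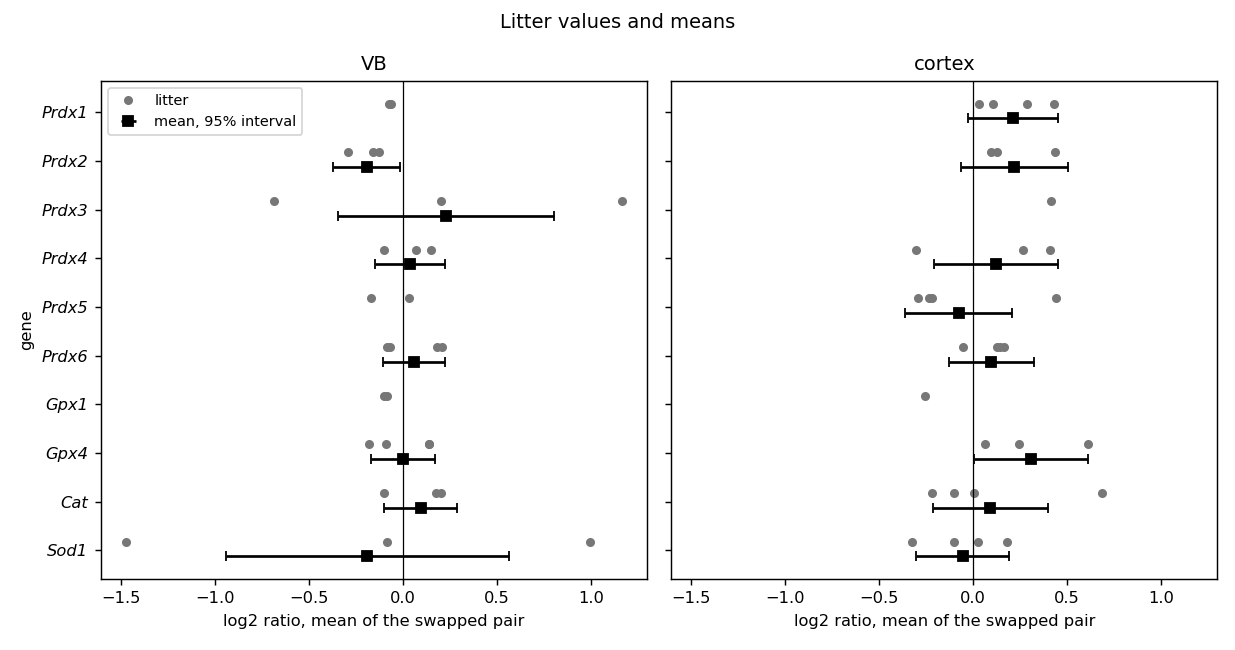
Pair means of each litter (grey points) and, for the genes tested, their mean with its 95% interval (black squares and bars), in log2 units, for VB on the left and cortex on the right. The intervals of Prdx2 in VB and Gpx4 in cortex just leave out 0 before adjustment, and those of Sod1 and Prdx3 in VB are the widest.

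In spread between litters, Sod1 and Prdx3 stood apart from the other members in VB. The SD of Sod1 in VB, 1.24 log2 units, was exceeded by 7 of the 16066 features, and that of Prdx3, 0.93, by 19, where the median SD was 0.133. The other 5 members tested in VB had SDs of 0.087 to 0.17. In cortex, where the median SD was 0.208, Sod1 had 0.21, and the 8 members tested ran from 0.10 for Prdx6 to 0.41 for Cat. These members were singled out after their values were seen, and the comparison is a description. Sod1 and Prdx3 did not share their pattern: litter 2 was the low litter for Sod1 and the high one for Prdx3.

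**Figure D3:**
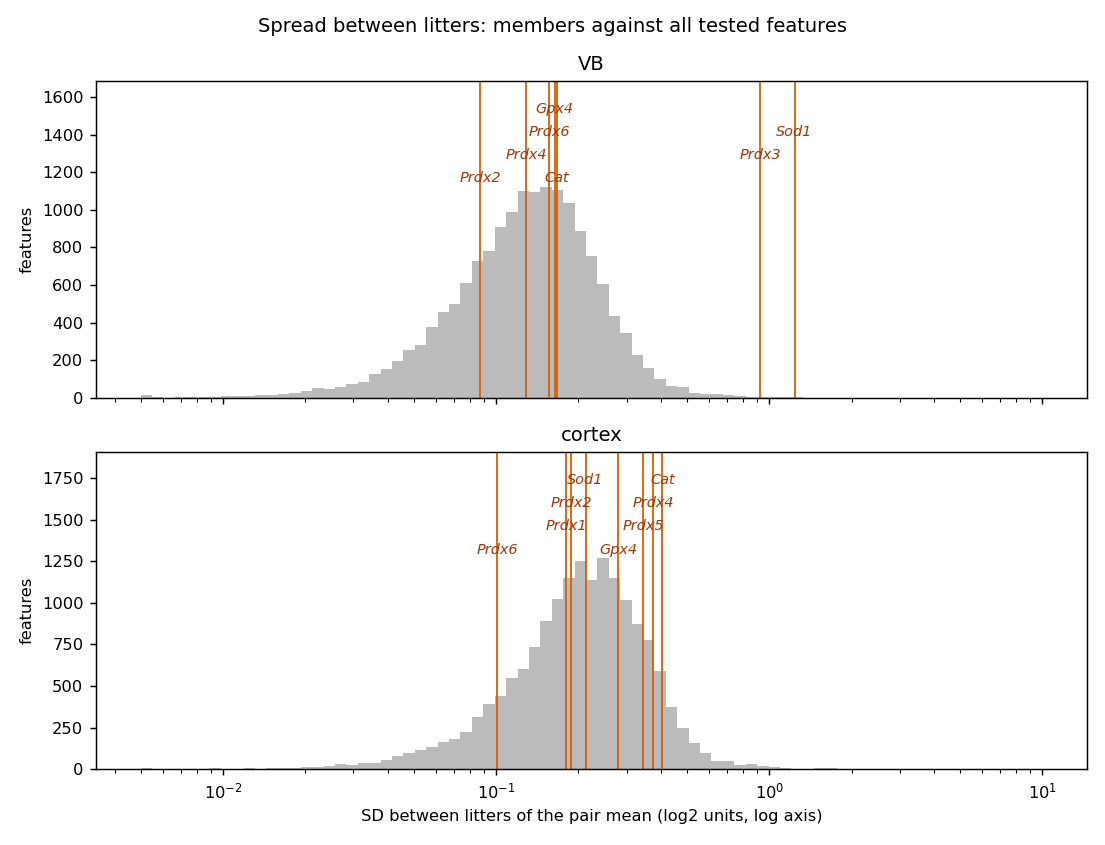
Number of tested features (vertical axis) by the SD of their pair mean between litters (horizontal log axis, log2 units), VB above and cortex below, with orange lines at the tested members. Sod1 (1.24) and Prdx3 (0.93) lie in the far right tail in VB.

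Under the second reading of the columns, the half-difference, 3 of the 7 members tested in VB passed in limma, all positive, where 17.3% of features passed and 6.97% passed with a positive sign. Cat had a half-difference of 0.45 ± 0.18 (SD, n = 3; 95% interval 0.26 to 0.65; adjusted p = 0.00647), positive in 3 of 3 litters. Prdx3 had 0.36 ± 0.08 (SD, n = 3; adjusted p = 0.0122), and its 3 litters, 0.30, 0.45 and 0.32, lay close together although its pair means did not. Without litter 2 the adjusted p of Prdx3 was 0.0574 and it did not pass. Gpx4 had 0.36 ± 0.15 (SD, n = 4; adjusted p = 0.00760), positive in 4 of 4 litters. Prdx2, Prdx4, Prdx6 and Sod1 had -0.086 to 0.0028. With 2 litters each and no test, Prdx1 had 0.15, Prdx5 0.013 and Gpx1 0.21. Of the blood genes, 3 of 8 passed by this quantity in VB, all positive, with a median of 0.11 over the 8, and 0 of 6 passed in cortex, with 1 at an unadjusted p under 0.05 and a median of 0.054. Their part in the Cat values was not tested.

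In cortex 0 of 8 members passed by their half-difference in limma, where 1.53% of features did, and 2 had an unadjusted p under 0.05, against 12.9% of features, Prdx2 (-0.33, adjusted p = 0.254) and Cat (-0.29, adjusted p = 0.300). Gpx4 had 0.21 in cortex (adjusted p = 0.519), and Prdx1, Prdx4, Prdx5, Prdx6 and Sod1 had 0.027 to 0.075. The single complete pairs of Prdx3 and Gpx1 gave -0.083 and 0.32. By this quantity Cat was positive in all 3 VB litters and negative in all 4 cortex litters. The cortex litters were uneven, from -0.0135 in litter 1 to -0.69 in litter 4. With 1 litter left out their mean ran from -0.38 to -0.16. The share of all features with such opposite signs was not counted for the half-difference. A test of VB minus cortex over the half-differences, added after seeing the data, gave 0.74 for Cat (95% interval 0.40 to 1.09; limma adjusted p = 0.0186), the single member of 6 that passed, where 3.74% of features passed. By the pair mean 0 of the 6 passed in limma, where 0.0985% of features did, 1 of them had an unadjusted p under 0.05, against 9.04% of features, and Cat had a difference of 0.0020 (adjusted p = 0.999). These calls are genotype ratios if the columns follow the dyes and dye effects of the probes if they were turned. The dye assignments did not overlap for 2 of the 7 members with at least 3 arrays of each in VB (Gpx4 and Cat), against 28.1% of probes, and for 1 of 8 in cortex (Prdx2), against 9.84%.

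**Figure D4:**
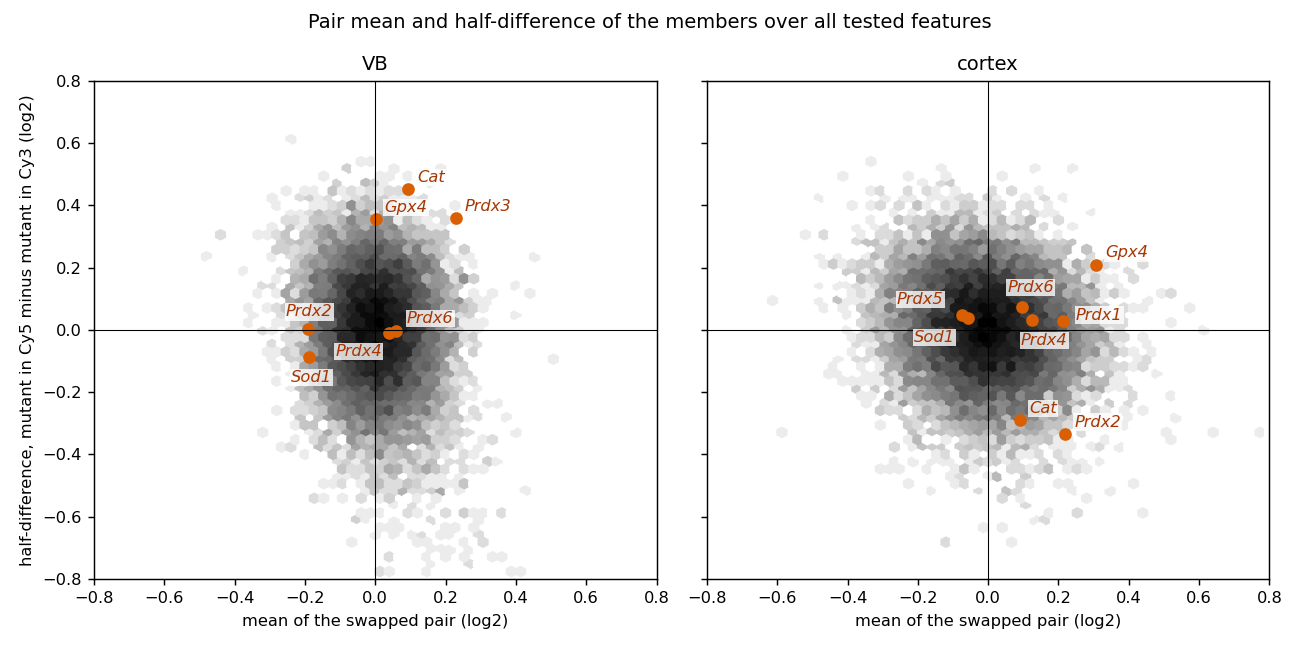
Pair mean (horizontal axis, log2) and half-difference (vertical axis, log2) of the tested members (orange, named) over the density of all tested features (grey, darker for more features on a log scale), VB left and cortex right, drawn to 0.8 on either side of 0. In VB Cat, Gpx4 and Prdx3 lie between 0.36 and 0.45 on the vertical axis and in cortex Cat lies at -0.29.

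The other listed genes, of antioxidant pathways and of oxidant-producing enzymes, showed no pair mean that passed. Of 95 genes listed besides the members, 90 had a probe. In VB 61 were tested (30 positive, 31 negative, median -0.0023), and 0 passed in limma, with 3 at an unadjusted p under 0.05, where 10.2% of all features had one. In cortex 68 were tested (32 positive, 36 negative, median -0.0026), and 0 passed, with 5 at an unadjusted p under 0.05, against 7.9% of features. By the half-difference 13 of the 61 passed in VB (8 positive, 5 negative, median 0.074), where 17.3% of all features passed, and 0 of 68 in cortex (median 0.0049), with 8 at an unadjusted p under 0.05. Of the 5 negative calls in VB, 2 were oxidant producers, of which 9 were tested (2 positive, 7 negative, median -0.0785).

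By group, in pair means, 5 other peroxidases and dismutases had a VB median of -0.046, and 8 had a cortex median of 0.042. The thioredoxin system, which recycles most peroxiredoxins, had 0.036 over 11 genes in VB and -0.025 over 13 in cortex. Genes of glutathione synthesis and transfer had -0.014 over 17 and 0.024 over 18, and those supplying NADPH had -0.086 over 4 and 0.051 over 6. NRF2 regulators and targets had 0.0088 over 15 in VB and -0.037 over 14 in cortex, and oxidant-producing enzymes 0.012 and -0.033 over 9 each.

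The smallest p-values in VB belonged to Mgst3, a microsomal glutathione transferase (-0.30 ± 0.19, SD, n = 4; limma adjusted p = 0.203), Ggt1, which breaks down extracellular glutathione (-0.27 ± 0.16, n = 3; adjusted p = 0.337), and Blvra, biliverdin reductase (0.21 ± 0.20, n = 3; adjusted p = 0.480). In cortex they belonged to Gpx6, a further glutathione peroxidase (0.62 ± 0.39, SD, n = 3; limma adjusted p = 0.242), Mafk, a partner of NRF2 (0.36 ± 0.16, n = 4; adjusted p = 0.349), and Txnrd2, the thioredoxin reductase of mitochondria that serves Prdx3 (-0.34 ± 0.13, n = 3; adjusted p = 0.536). With 1 litter left out the adjusted p of Gpx6 in limma ran from 0.0477 (without litter 4) to 0.721. Without litter 4, 169 cortex features passed, against 10 in the main fit. In the other tissue Mgst3 had -0.16 and Blvra -0.24 in cortex, while Gpx6 had 0.17, Mafk -0.070 and Txnrd2 0.17 in VB. By the half-difference Ggt1 (-0.39, limma adjusted p = 0.0111) and Mgst3 (0.24, adjusted p = 0.0451) passed in VB, while Blvra had -0.092 there, and in cortex Gpx6 had -0.050, Mafk -0.079 and Txnrd2 0.028.

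Lists of other cells gave, for VB and cortex, medians of 0.028 over 15 and -0.16 over 13 astrocyte genes, -0.045 over 8 and 0.017 over 6 genes of the oligodendrocyte lineage, -0.017 over 8 and -0.071 over 7 microglia genes, and -0.061 and -0.035 over 9 neuron genes each. In cortex 5 of the 9 neuron genes, from -0.58 to 0.54, and 4 of the 13 astrocyte genes had an unadjusted p under 0.05, against 7.9% of features, and in VB 1 of the 9 and 4 of the 15, against 10.2%. Those 4 astrocyte genes were all negative in cortex, from -0.93 to -0.33, and of both signs in VB, from -0.57 to 0.22. Of all astrocyte genes tested, 3 were positive and 10 negative in cortex, and 8 positive and 7 negative in VB. The part of these cells in the members' values was not tested. Of these lists, the astrocyte gap junction gene Gja1 passed, at -0.57 ± 0.11 in VB (SD, n = 4; limma adjusted p = 0.00868) and -0.93 ± 0.30 in cortex (adjusted p = 0.0174). Without litter 1, 2 or 3 the cortex call was lost (adjusted p = 0.0688 to 0.113). By its half-difference Gja1 had 0.41 in VB (adjusted p = 0.00676) and -0.22 in cortex (0.422).

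The 5 genes whose ratios ran most like those of Prdx2, over the 14 arrays where it had a value and among 4775 other genes with values on all 14, were Gopc (Pearson r = 0.83), Olfr890 (0.83), Mapk10 (0.82), Cd47 (0.80) and Cd24a (0.79). Prdx6, the single other member with values on all 14, had r = -0.24. These arrays share litters, dyes and tissues, so the likeness is a description.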

How the data were processed

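The 16 arrays, 8 per tissue, came as 1 table of log2 values deposited by the authors: signed log ratios of mutant and control RNA, with array medians of -0.0030 to 0.0040. Base 2 is assumed. How they scanned, filtered and normalized the spots is not given in the sources used here, and signal over background is unknown. The number of arrays limits the precision. Each array held 17711 to 22580 values. The 10 members had 68 of 80 possible values in VB and 71 of 80 in cortex, and 29 and 31 of 40 complete pairs.

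Probes took the platform's symbol, updated through RefSeq (GRCm38.p6) by accession (15685 probes), symbol (2963) or synonym (1694), and 27 were kept as deposited. Probe sequences were not used here, so reading of close paralogs was not tested. Both arrays of a litter were averaged (or halved in difference) where both had a value, probes of a gene were averaged, and features with at least 3 of 4 litters were fitted with limma 3.58.1 in R 4.3.3 (two-sided eBayes, threshold 0.05 after Benjamini-Hochberg adjustment over all features). The tissue difference was fitted over litter values with a tissue term. The fits were also run on simulated independent normal values with known shifts, which do not bear on column direction, dye effects or shared litters.

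Members, lists and the naming rule were chosen with earlier results of these data known. All members are named, listed genes if they passed or had one of the 3 smallest p-values of the antioxidant and oxidant-producer lists in a tissue, and the 5 genes most like the member with the smallest p. Values of Hbb-bt were added outside this rule, after they were seen. Genes named for Sod1 and Prdx3 under the closing observations were chosen after their values were seen. Litter numbers recur across tissues in the labels, and the tissue difference was also fitted with a replicate block. Same-numbered litters had correlations of their deviations of -0.0016, -0.015, -0.011 and 0.029. Alternatives covered normalization, centring, column direction, filters, probes, eBayes, array pairs and single litters.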

Additional observations from a re-analysis of the deposited data

Results flagged for a closer look

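In cortex Prdx5 had a pair mean of 0.44 in litter 1, far from the other 3 litters (-0.29 to -0.22), in both dye assignments. Prdx6 had a pair mean of -0.054 in cortex litter 2, below the other 3 (0.13 to 0.16). Both gaps exceeded Dixon's 95% critical value, and 2 of 31 groups of 4 values were picked out this way, where chance gives about 5%.

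Prdx2 was negative in all 3 VB litters and positive in all 3 cortex litters with a value, a difference of -0.41 whose test did not pass (limma adjusted p = 0.410). With litter as a replicate block it was -0.34 (95% interval -0.75 to 0.082; limma adjusted p = 0.684), resting on litters 1 and 2, which alone had pairs in both tissues.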

How the results depend on the processing

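Of 513 values of single genes under the alternatives, 437 kept their sign and their side of the threshold, and 59 changed sign, whether or not they crossed the threshold. With the sign kept, 9 came to pass and 8 no longer passed. No member passed by the pair mean under quantile normalization, centring, another litter minimum, separate probes, robust eBayes or arrays kept apart. Members passed where 1 dye assignment was used or where the columns follow the dyes. In VB the main count of 50 of 16066 features became 19 with quantile normalization. It became 0 with arrays kept apart and litter as a random block (1640 at an unadjusted p under 0.05). With mutant-Cy5 arrays alone 1167 of 18012 features passed, and 1 of 7 members, Cat (0.55). With mutant-Cy3 arrays alone 1678 of 20925 features passed, and 1 of 10 members, Gpx4 (-0.35). In that fit signs changed for Prdx3 (-0.36), Cat (-0.48), Ggt1 (0.12) and Gpx6 (-0.048). If the columns follow the dyes the VB count was 2784 of 16066 features (3 of 7 members). Signs then changed for Prdx2 (0.0028), Prdx4 (-0.0088), Prdx6 (-0.0020), Blvra (-0.092), Gja1 (0.41), Mafk (0.053), Mgst3 (0.24) and Txnrd2 (-0.024). Centring gave Gpx4 -0.00062. In cortex the main count of 10 became 253 if the columns follow the dyes (Prdx2 -0.33, Prdx5 0.047, Cat -0.29, Sod1 0.038, Blvra 0.0025, Gpx6 -0.050, Mafk -0.079, Txnrd2 0.028), 18 with at least 2 litters, 16 with probes apart, 3 with arrays apart, 95 with mutant-Cy5 arrays (Prdx2 -0.021, Cat -0.20) and 152 with mutant-Cy3 arrays. For VB minus cortex the main count was 12 of 12178 features, or 455 (1 of 6 members) if the columns follow the dyes (Prdx2 0.34, Gpx4 0.15). A cortex sign turned gave Prdx2 0.027, Prdx4 0.16, Prdx6 0.15 and Gpx4 0.31. With litter as a replicate block 16 features passed, Prdx2 had -0.34 (from litters 1 and 2 alone, adjusted p = 0.684) and Cat -0.062, and 0 members passed by limma, with 0 at an unadjusted p under 0.05. Quantile normalization gave VB half-differences of 0.0019 for Prdx6 and 0.0079 for Sod1. Leaving out 1 litter at a time gave 31 (without litter 2) to 156 features (without litter 4) in VB, 0 (without litter 1, 1037 at an unadjusted p under 0.05) to 169 (without litter 4) in cortex, and 1 without litter 2, 1832 to 2221 and 147 to 317 for the half-differences in VB and cortex, and 1 (without litter 1) to 14 for VB minus cortex. With 1 litter left out the VB pair means ranged over 0 for Prdx3 (-0.24 to 0.69), Prdx4 (-0.015 to 0.11), Gpx4 (-0.045 to 0.062) and Sod1 (-0.78 to 0.45), and those of cortex for Prdx4 (-0.019 to 0.34), Cat (-0.11 to 0.20) and Sod1 (-0.13 to 0.033). The same held for VB half-differences of Prdx2 (-0.073 to 0.11), Prdx4 (-0.12 to 0.066), Prdx6 (-0.029 to 0.042) and Sod1 (-0.41 to 0.31), and for cortex half-differences of Prdx1 (-0.063 to 0.10), Prdx4 (-0.013 to 0.054), Prdx5 (-0.011 to 0.087) and Sod1 (-0.030 to 0.088). For VB minus cortex it held for Prdx4 (-0.23 to 0.0040), Prdx6 (-0.071 to 0.022), Cat (-0.069 to 0.14) and Sod1 (-0.65 to 0.49). The causes were not tested. Each mean of the main fits in 1 tissue rests on 3 or 4 litters, the fits without a litter and with the replicate block can rest on fewer, and signal over background is unknown.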

Other observations

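The VB litter swings of Sod1 and Prdx3 were set against other genes after their values were seen. Over the 7 VB arrays with a Sod1 value, the genes that ran most like it among 8083 were Srsf11, a splicing factor gene (Pearson r = 0.98), Zpr1 (0.97), 4930415O20Rik (0.96), Kif1b, a motor of axonal transport (0.95) and Olfr665 (0.95). Prdx6 had r = 0.80 with Sod1, above 98.2% of these genes, while Gpx4 had -0.11 and Prdx4 -0.22. For Prdx3, over 7 VB arrays and 8818 genes, they were Olfr541 (0.98), Gpr137b (0.97), Thrap3 (0.97), Ube2n (0.97) and Taf4b (0.96). Gpx4 had r = 0.77 with Prdx3, above 97.5% of these genes, Prdx2 had -0.26 and Prdx6 -0.63. With 7 arrays that share litters and dyes, and the genes picked for the highest r, these are descriptions.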
